A study of Oryza sativa Indica Group with 4 samples.

Results

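Expansins are secreted proteins that loosen plant cell walls without cutting their polymers. They act in acidic walls, where they let cellulose microfibrils and the surrounding matrix slide while turgor pressure stretches the cell. Alpha expansins (EXPA genes) carry most of the acid growth activity described in flowering plants. Beta expansins (EXPB genes) form a large family in grasses, where some of them are abundant pollen allergens and others are expressed in vegetative tissue. Expansin-like proteins (EXLA and EXLB genes) share the same fold, but no wall loosening activity is established for them. In a young panicle, cells of branch and spikelet primordia divide and enlarge at the same time, so expansins are of interest there as the proteins that allow walls to yield.

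The expansin genes were found by symbol or synonym, as EXPA, EXPB, EXLA or EXLB followed by a number. The gene table names 49 such genes, and 29 of them were paired with at least 1 probe set of the array, among 17905 genes paired in all. These 29 were 14 alpha expansins, 11 beta expansins and 4 expansin-like A genes, read by 33 probe sets. The other 20 genes, among them EXLB1, EXPA9, EXPA17, EXPB5 and a run of 6 neighbouring alpha expansin genes (EXPA12, EXPA25, EXPA15, EXPA18, EXPA19 and EXPA20), were not analysed here. For 3 genes with several probe sets, the brightest was used.

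RNA came from panicle primordia of Oryza sativa (Indica Group) at the stage that the submitters number 0, and was hybridised to an Affymetrix rice array. Recombinant inbred lines were pooled by grain number per panicle: 10 lines of high grain number made 1 kind of bulk, and 10 of low grain number the other. All lines descend from 2 cultivars, which the labels do not name, and were fixed by selfing after the cross. Each kind of bulk was measured in 2 biological replications, giving 4 arrays, and the labels do not say what the replications share. The p-values below therefore rest on the spread between arrays within a kind of bulk, and the value of a single line is not seen. The spread used for each probe set was in part taken from other probe sets of like brightness. In such bulk RNA, fewer cells that express a gene and less RNA per cell cannot be told apart.

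The 4 arrays correlated at 0.969 to 0.981 across the 34316 probe sets tested. The low grain number replicate 2 array was brighter as deposited than the others, with a trimmed mean of 55.3 against 36.5 to 40.5, and intensities below are quantile normalised unless called deposited. Of the markers of a young inflorescence, 7 genes were measured. MADS15, a floral meristem gene, lay at 699 and 584 on the high arrays and at 716 and 545 on the low arrays. OSH1, a meristem homeobox gene, was also bright, at 527 and 605.5 on the high arrays and at 763 and 650.1 on the low arrays. FZP, a spikelet meristem gene, was at 1.28 or less on all 4 arrays. The log2 differences of the 6 tested genes of this list, high minus low grain number, were 3 positive and 3 negative. They were 0.51 for RFL, 0.44 for MADS34 and 0.03 for MADS15, and -0.31 for OSH1, -0.12 for LAX1 and -0.07 for MADS14. In the test described below, 0 of these 6 were called.

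The comparison of high with low grain number bulks asks which genes differ in young panicles of lines that later bear many or few grains. None of the 19 expansin genes bright enough to be tested differed past an adjusted p of 0.05 (limma over all probe sets, two-sided), where 0.568% of all probe sets tested did (53 higher and 142 lower in the high bulks, against 37 higher and 233 lower under the deposited scaling). At an unadjusted p under 0.05 there were 2, EXPA16, which was brighter in the high bulks, and EXPA5, which was dimmer there, where 8.24% of all probe sets tested lay under that value. The groups did not overlap for 3 of the 19 (EXPA16, EXPA5 and EXPB6), or 15.8%, against 37.1% of all probe sets tested. The log2 difference, high minus low, was under 0.5 in size for 18 of the 19 genes (94.7%, against 93.3% of all probe sets tested), and 0 of them reached a 2-fold difference, as 350 of the 34316 probe sets tested did. That count holds for the offset of 16 added before the log: with an offset of 1, EXPA16 had a log2 difference of 1.04 and EXLA1 one of -1.41.

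**Figure D1:**
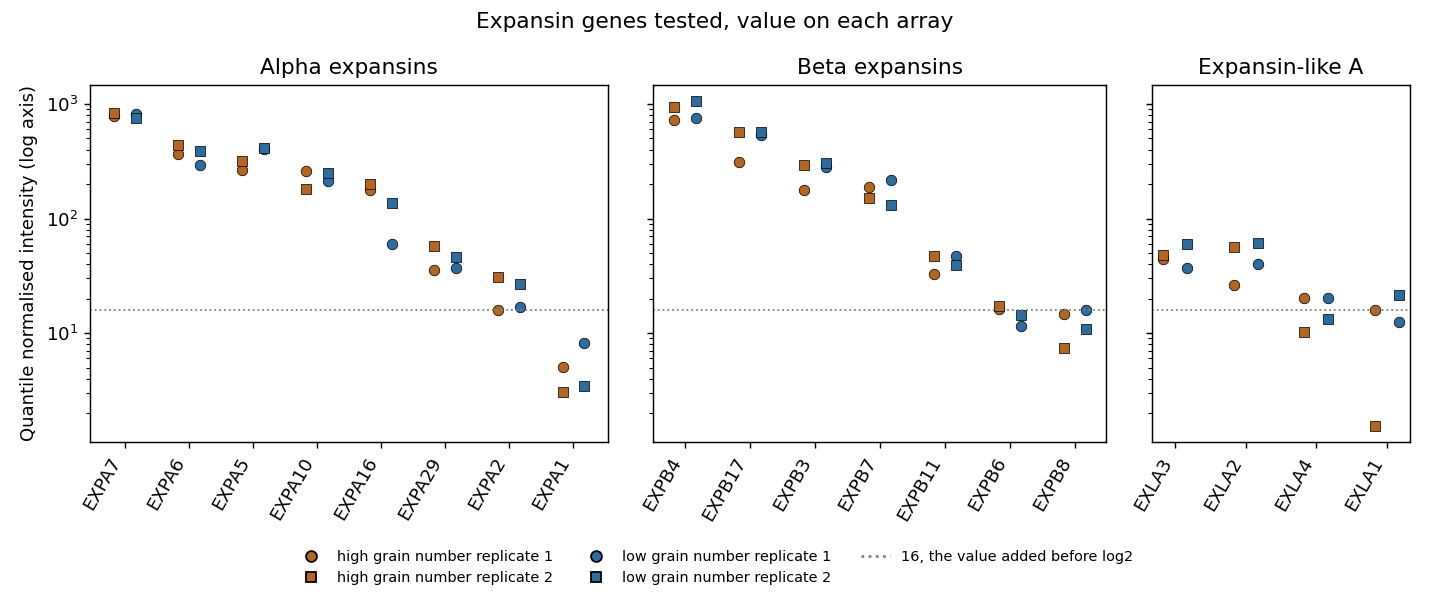
Quantile normalised intensity (vertical log axis) of the 19 tested expansin genes on each array, with the high grain number arrays left of the low grain number arrays for each gene. Each point is 1 array; EXPA16 has both high arrays above both low arrays, EXPA5 has both below, and most other genes overlap. Heights of different genes are not comparable, because each probe set binds with its own strength.

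Among the 8 tested alpha expansins, EXPA16 (LOC4341549) had the largest difference. It was at 179 and 198 on the high arrays, against 59.7 and 138 on the low arrays. Both high arrays were above both low arrays, and the low arrays stood further apart from each other than the high arrays did. The log2 difference was 0.92 ± 0.30 (SE), a 1.89-fold higher level in the high bulks, with an unadjusted 95% interval of 0.27 to 1.57 and a limma adjusted p of 0.359. The size rested on the low grain number replicate 1 array: without it the log2 difference was 0.42 ± 0.27, and without low grain number replicate 2 it was 1.41 ± 0.27. As deposited, EXPA16 had 165 and 185 on the high arrays, against 51.4 and 179 on the low arrays, so that the groups overlapped.

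EXPA5 (LOC4330706) ran the other way, at 265 and 315.5 on the high arrays, against 401 and 409 on the low arrays. Both low arrays were above both high arrays, and the low pair was closely matched. The log2 difference was -0.46 ± 0.19 (SE), or 1.38-fold lower in the high bulks, with a limma adjusted p of 0.553. Its unadjusted interval ran from -0.88 to -0.04. The deposited values, 241 and 294 on the high arrays, against 338 and 530.4 on the low arrays, kept the same order. The log2 difference with the deposited scaling was -0.64 ± 0.42, so its standard error was larger than with quantile normalisation.

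**Figure D2:**
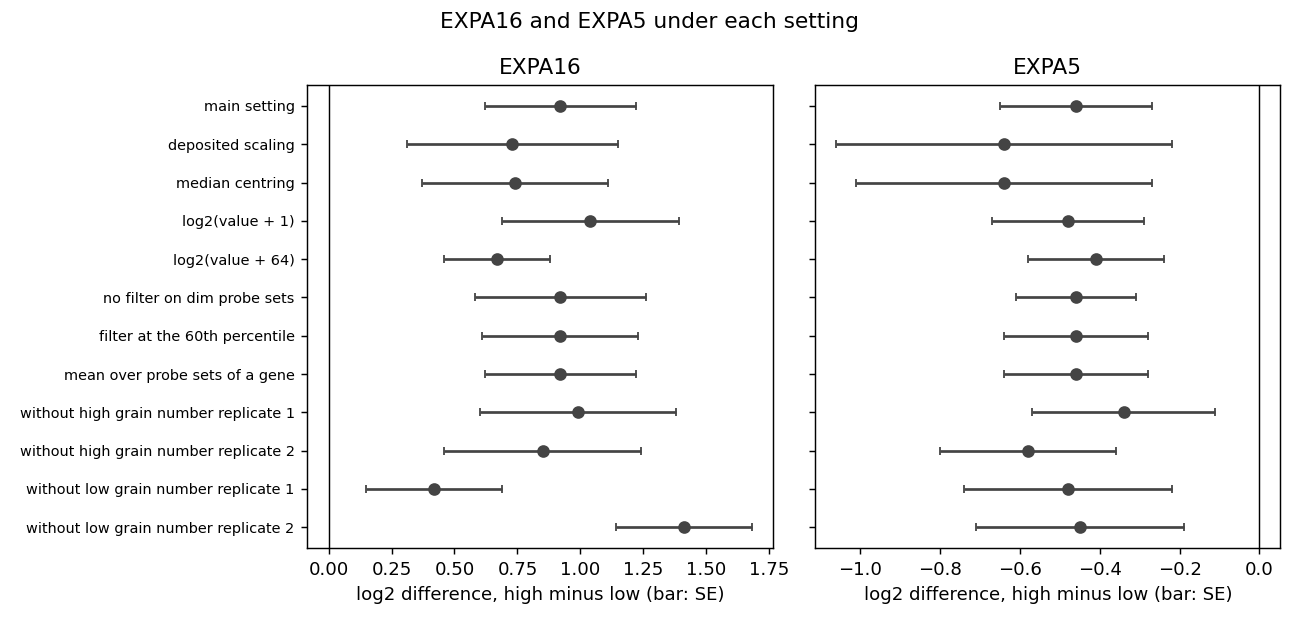
Log2 difference, high minus low grain number (horizontal axis), of EXPA16 and EXPA5 under the main setting and under other scalings, offsets, filters and with each array left out in turn. Points are estimates and bars are limma standard errors; EXPA16 stays above 0, from 0.42 to 1.41, and EXPA5 stays below 0, from -0.64 to -0.34. The quantile normalised groups of both genes did not overlap, so leaving out 1 array could change the size but not the sign.

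The other bright alpha expansins overlapped between the bulks. EXPA7 (LOC4334606) was the steadiest gene of the family, at 790.3 and 829 on the high arrays and at 815 and 756 on the low arrays. Its highest array was only 1.1 times its lowest, and the log2 difference of 0.04 ± 0.17 had an interval of -0.32 to 0.41. EXPA6 (LOC4332763) was at 367 and 435 on the high arrays and at 294 and 387 on the low arrays. The low grain number replicate 1 array was its lowest, and the log2 difference was 0.23 ± 0.21 (limma adjusted p = 0.865).

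EXPA10 (LOC4336776), known as an aluminium-inducible expansin of rice roots, was at 260.1 and 179.9 on the high arrays and at 211 and 249.9 on the low arrays. The high arrays enclosed both low arrays, and the log2 difference was -0.08 ± 0.22. Of the dimmer alpha expansins, EXPA29 (LOC4342086) was at 35.3 and 57.0 on the high arrays and at 37.0 and 45.7 on the low arrays. EXPA2 (LOC4327568) was at 15.8 and 30.6 on the high arrays, against 16.8 and 27.0 on the low arrays. In both genes the spread within a kind of bulk was wider than the gap between the bulks, with log2 differences of 0.10 ± 0.23 and 0.04 ± 0.24. EXPA1 (LOC4335222) was near the lowest level tested, at 5.08 and 3.05 on the high arrays and at 8.15 and 3.43 on the low arrays, and its log2 difference was -0.11 ± 0.19.

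The 7 tested beta expansins had small differences, and 6 of the 7 were negative. EXPB4 (LOC4349350), one of the beta expansins linked to growth of deepwater rice internodes, was at 718 and 938 on the high arrays and at 756 and 1058 on the low arrays. The low pair spanned a wider range than the high pair, and the log2 difference was -0.12 ± 0.21 (limma adjusted p = 0.945). Its probe set is of the kind whose probes match transcripts of more than 1 gene, so its signal can hold that of close relatives. EXPB3 (LOC4349349), of the same internode group, was at 179 and 295 on the high arrays and at 283 and 304 on the low arrays.

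EXPB17 (LOC4336479) was at 308 and 573 on the high arrays and at 539.9 and 564 on the low arrays. In EXPB3 and EXPB17 alike, the high grain number replicate 1 array stood well below the other 3 arrays. Their log2 differences, the most negative of the beta expansins, were -0.33 ± 0.24 for EXPB3 and -0.38 ± 0.25 for EXPB17 (limma adjusted p = 0.817 and 0.797). Without the high grain number replicate 1 array they were 0.0041 for EXPB3 and 0.05 for EXPB17.

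EXPB7 (LOC4331300) was at 187 and 151 on the high arrays and at 217 and 131 on the low arrays. The high pair lay inside the range of the low pair, and the log2 difference was -0.01 ± 0.25. EXPB11 (LOC4330213), also of the internode group, was at 32.8 and 47.1 on the high arrays and at 46.7 and 39.6 on the low arrays, with a log2 difference of -0.09 ± 0.22. EXPB6 (LOC4349347), another gene of that group, was the exception in sign: it was at 16.4 and 17.2 on the high arrays and at 11.5 and 14.5 on the low arrays. The groups of EXPB6 did not overlap after quantile normalisation, but they did as deposited, and the log2 difference of 0.18 ± 0.19 had a limma adjusted p of 0.898. EXPB8 (LOC4331298) was at 14.8 and 7.43 on the high arrays and at 16.02 and 10.9 on the low arrays, and its log2 difference was -0.13 ± 0.21.

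The 4 expansin-like A genes all had negative differences and overlapping groups. EXLA1 (LOC4331516) was at 16.02 and 1.55 on the high arrays and at 12.5 and 21.6 on the low arrays. As a ratio of intensities this was the widest spread of any tested member, with the highest array 13.9 times the lowest. It came mainly from the high grain number replicate 2 array, whose 1.55 is below the mean of about 3.28 that the filter asked for. On the log2(value + 16) scale the largest deviation from a gene's mean was -0.97, in EXPA16, against -0.67 for EXLA1 on that array. The log2 difference of EXLA1 was -0.47 ± 0.28 (limma adjusted p = 0.754), and its interval of -1.08 to 0.14 reached past 2-fold. Leaving out replicate 2 of the high bulks gave -0.03, and leaving out their replicate 1 gave -0.92. With replicate 2 of the low bulks left out it was -0.25. EXLA2 (LOC4349265) was at 26.4 and 56.9 on the high arrays and at 40.3 and 61.1 on the low arrays, with a log2 difference of -0.24 ± 0.28. EXLA3 (LOC4343213) was at 44.7 and 47.7 on the high arrays and at 36.9 and 59.7 on the low arrays. EXLA4 (LOC4342109) was at 20.3 and 10.3 on the high arrays and at 20.4 and 13.3 on the low arrays. The log2 differences of EXLA3 and EXLA4, -0.02 ± 0.23 and -0.08 ± 0.23, were smaller than their standard errors.

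**Figure D3:**
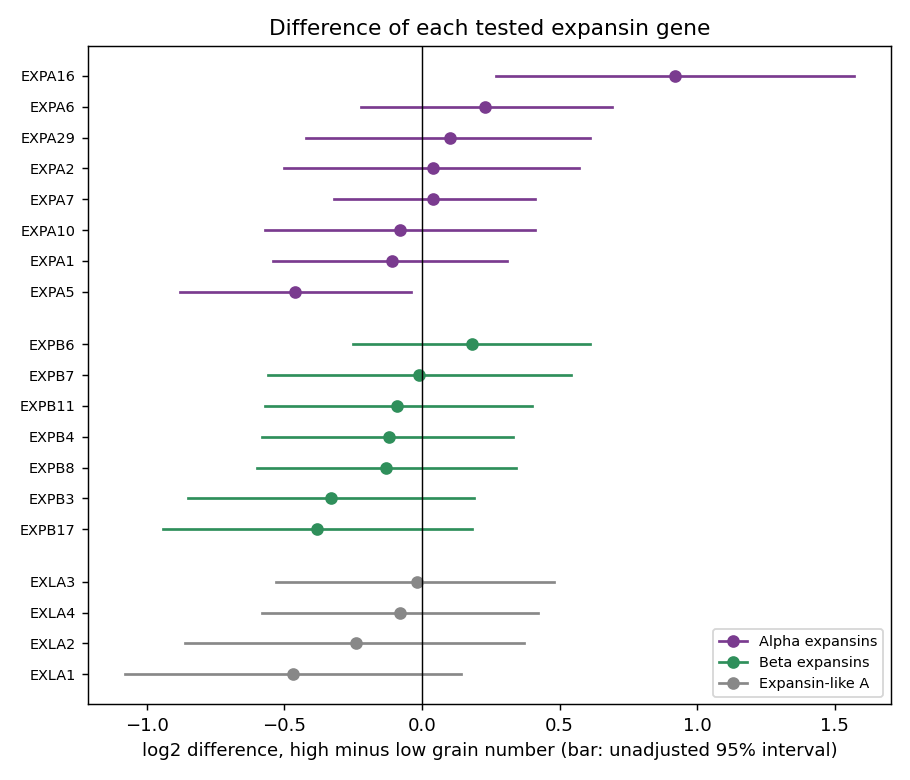
Log2 difference, high minus low grain number (horizontal axis), for each of the 19 tested expansin genes, grouped by subfamily. Points are limma estimates and bars are unadjusted 95% intervals; the bars of EXPA16 and EXPA5 miss 0 and the other 17 hold it.

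The unadjusted 95% interval lay within a 2-fold difference in either direction for 17 of the 19 genes, and EXPA16 and EXLA1 were the exceptions. Of the 19 intervals, 17 held 0. The median reach of these intervals to either side was 0.50 on the log2 scale. The only member with a difference larger than that, EXPA16, also missed the adjusted threshold. With the deposited scaling the intervals were wider: 11 of 19 lay within 2-fold and 18 of 19 held 0. Under that scaling the log2 difference was 0.73 ± 0.42 for EXPA16, -0.64 ± 0.42 for EXPA5 and -0.55 ± 0.25 for EXLA1. So EXPA16 and EXPA5 did not stand out under every scaling. All these counts hold for the offset of 16 added before the log. With an offset of 1, the standard error was 0.71 for EXPA1, 0.46 for EXPB8 and 0.43 for EXLA4, against 0.19, 0.21 and 0.23. That of the bright gene EXPA7 was 0.16, against 0.17. Intervals within 2-fold were not counted with that offset, so the counts do not exclude a 2-fold difference in the dim genes.

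Set side by side, the tested alpha expansins had a median log2 difference of 0.04, with 5 positive and 3 negative, and the beta expansins had a median of -0.12, with 1 positive and 6 negative. The median over all probe sets tested was 0.01, of which 47.9% were negative. Over all 19 expansins the median was -0.08, with 13 negative, and 16 were negative under the deposited scaling, where EXPA2, EXPA7 and EXPA29 changed sign. The alpha range, -0.46 to 0.92, enclosed the beta range, -0.38 to 0.18. The medians of the subfamilies differed by 0.16, and no error of that gap was computed. The median standard error of a single member's difference was 0.23, which is not an error of the gap. Neither sign held under every alternative. The alpha median was -0.10 on the deposited scale and -0.09 when arrays were centred on their medians, where the median of all probe sets was -0.07, and it was -0.04 without high grain number replicate 2. The beta median was 0.05 without high grain number replicate 1. The alpha median stayed above the beta median under every setting, by 0.02 to 0.35. All settings draw on the same 4 arrays, and the order of the subfamilies was not tested.

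**Figure D4:**
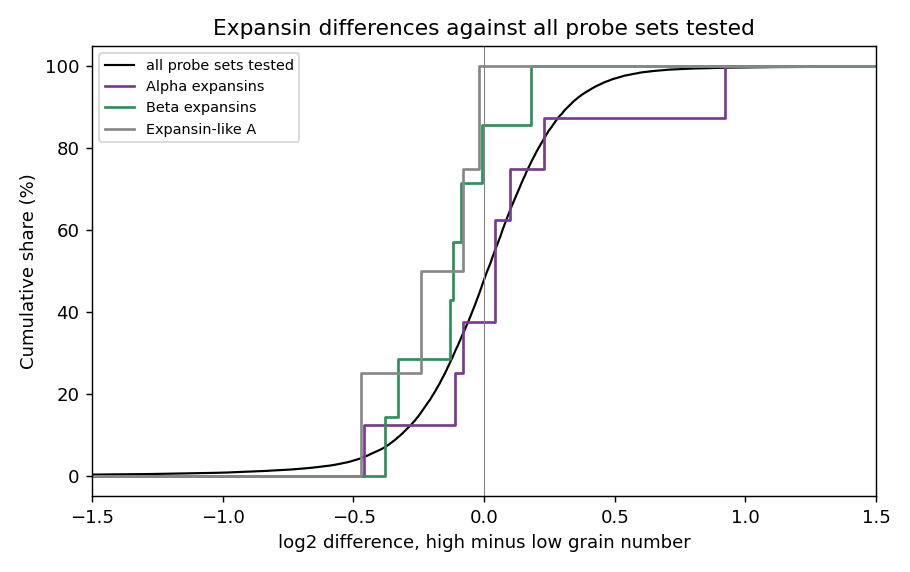
Cumulative share in percent (vertical axis) of log2 differences, high minus low grain number (horizontal axis, cropped at 1.5 either way), for all probe sets tested and for each expansin subfamily. The alpha expansin steps run close to the curve of all probe sets apart from EXPA16 at 0.92, and the beta expansin and expansin-like A steps lie mostly to its left.

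The arrays also differed within each kind of bulk, and for many members more than the bulks did. Of the 19 tested expansins, 11 were brighter on the replicate 2 array than on the replicate 1 array in both kinds of bulk (57.9%, against 25.6% of all probe sets tested). These were EXPA2, EXPA5, EXPA6, EXPA16 and EXPA29, EXPB3, EXPB4, EXPB6 and EXPB17, and EXLA2 and EXLA3. The log2 difference of replicate 2 from replicate 1 in EXPA2 was 0.55 for the high pair and 0.39 for the low pair. For EXPB4 it was 0.38 for the high pair and 0.48 for the low pair, and for EXLA2 it was 0.78 for the high pair and 0.45 for the low pair. EXPA1, EXPB7, EXPB8 and EXLA4 were dimmer on the replicate 2 array in both kinds of bulk (4 of 19, against 9606 of the 34316 probe sets tested). What the replicate numbers stand for is not given in the labels, and the part of sampling, RNA or array in this pattern was not tested.

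**Figure D5:**
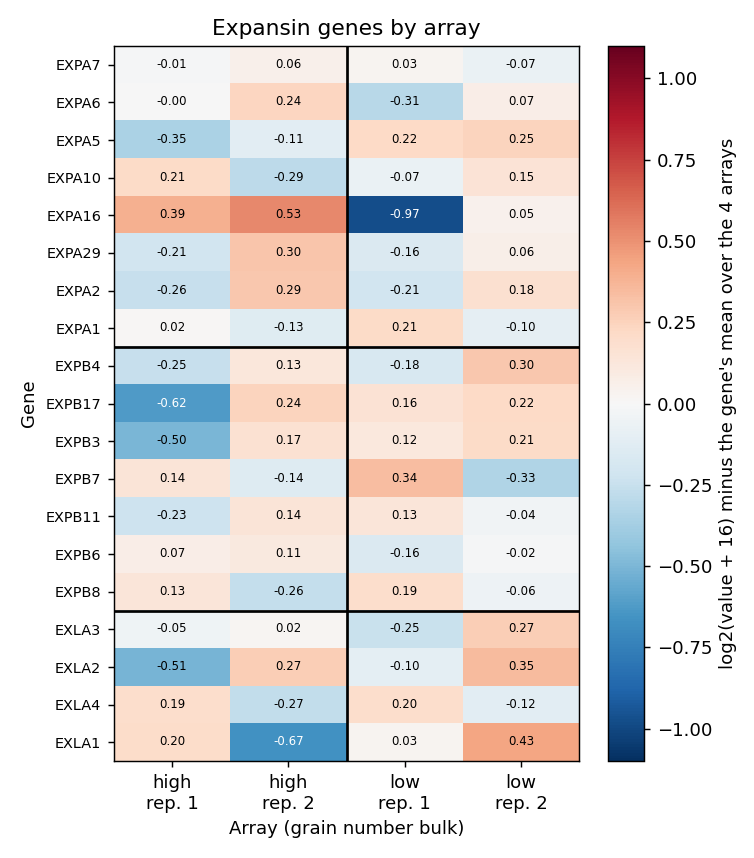
Log2(value + 16) of each tested expansin gene on each array minus that gene's mean over the 4 arrays (colour and printed value), with alpha expansins on top, then beta expansins, then expansin-like A genes. The high grain number arrays are left of the line; the largest deviation is -0.97 for EXPA16 on low grain number replicate 1. EXPB17, EXPB3 and EXLA2 are lowest on high grain number replicate 1, as are, by less, EXPA5, EXPA2, EXPB4, EXPB11 and EXPA29.

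Several expansin genes are neighbours in the gene table's order. EXPB6, EXPB2, EXPB3 and EXPB4 follow each other with 0 genes between them. EXPB2, a root-growth gene in rice, was at 1.15 and 0.7 on the high arrays and at 0.8 and 0.6 on the low arrays, too dim to be tested, although EXPB6, EXPB3 and EXPB4 were all tested. Of these 4, EXPB3 and EXPB4 had negative differences and EXPB6 a positive one. EXPB8 and EXPB7 lie with 1 gene between them, and both had the replicate 1 array above the replicate 2 array in both kinds of bulk.

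The 10 expansin genes too dim to be tested were EXPA3, EXPA4, EXPA8, EXPA26, EXPA31 and EXPA32 and EXPB2, EXPB9, EXPB10 and EXPB18. Their values ran from 0.2 to 4.8 over all 4 arrays, below the 16 added before the log. EXPA4, which is induced in submerged deepwater rice internodes, was at 0.25 and 3.45 on the high arrays and at 0.475 and 0.35 on the low arrays. EXPA8, whose overexpression alters rice roots, was at 0.925 and 0.6 on the high arrays and at 3.45 and 0.2 on the low arrays. EXPB9 was at 3.83 and 4.05 on the high arrays, against 1.85 and 0.8 on the low arrays, and EXPA26 was at 0.8 and 0.8 on the high arrays, against 3.81 and 2.6 on the low arrays. Such values carry little information on order. Fitted with no filter, 0 of all 29 genes passed an adjusted p of 0.05 (limma, smallest adjusted p 0.7), and of these 10 only EXPA26 lay under an unadjusted p of 0.05. The lack of signal says only that these probe sets were not bright, not that the genes are silent.

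Of the 3 genes with several probe sets, EXPA7 had only its brightest tested. Its other probe sets were dim on all 4 arrays, at 0.475 to 5.08 and at 0.7 to 3.7. The second probe set of EXPB17 had a log2 difference of -0.14 ± 0.18 and that of EXLA2 one of -0.15 ± 0.28, each with the sign of the brightest probe set. That of EXPB17 was near the lowest level tested, at 3.15 and 2.58 on the high arrays and at 6.73 and 3.13 on the low arrays. Its sign therefore carries little information.

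Other enzymes also remodel walls during expansion, namely xyloglucan endotransglucosylases, endo-1,4-beta-glucanases, pectin methylesterases and their inhibitors. Of 24 genes that matched symbols of these families and had a probe set, 18 were tested and 0 passed an adjusted p of 0.05 (limma, 2 at an unadjusted p under 0.05, against 8.24% of all probe sets tested, median log2 difference 0.06). GLU10, an endoglucanase symbol, was at 11.5 and 18.5 on the high arrays and at 37.7 and 35.7 on the low arrays, a log2 difference of -0.77 ± 0.21 (limma adjusted p = 0.208). PMEI28, a pectin methylesterase inhibitor, was at 325 and 256 on the high arrays and at 174 and 179 on the low arrays, with 0.66 ± 0.20 (limma adjusted p = 0.324). The second smallest p among positive differences was that of GLUP3, at 0.34 ± 0.23, and among negative ones that of CEL9E, a glucanase, at -0.17 ± 0.19, and neither passed. Of 2 genes named after their values were seen, GLU1, a membrane-bound endo-1,4-beta-glucanase of rice internodes, had -0.01 ± 0.18, and XTH8, a xyloglucan endotransglucosylase, had -0.08 ± 0.20. The pattern for glucanases also took in glutelin (seed storage protein) genes and GLUP genes of glutelin processing. Without them, a choice made after the matches were seen, 15 genes were tested and 0 passed.

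Some markers of other tissues passed the test, which called 0.568% of all probe sets. Of 5 genes matched to secondary wall symbols, 3 (CESA7, CESA4 and BC1) were called lower in the high bulks. CESA9 had -0.83 ± 0.21 (limma adjusted p = 0.173), and a second gene with BC1 as a synonym had 0.17 ± 0.21. All 5 were counted, and their summed intensity was 78.9 and 105 on the high arrays, against 357 and 438 on the low arrays. CESA7, a secondary wall cellulose synthase, was at 11.5 and 10.9 on the high arrays and at 110 and 106 on the low arrays. The tapetum and pollen symbols matched 11 genes, of which 10 were tested and 1 was called, lower in the high bulks. That gene was RTS, a tapetum gene, at 1.53 and 0.875 on the high arrays and at 224 and 553 on the low arrays. The summed intensity of that list was 1656 and 1621 on the high arrays, against 2238 and 2904 on the low arrays. Besides RTS, C6 carried that gap, at 26.2 and 293 on the high arrays, against 649.6 and 993 on the low arrays (limma adjusted p = 0.115). Of the other tested genes of the list, GAMYB, TDR, TIP2 and MSP1 had positive differences of 0.12 to 0.20. EAT1, RAFTIN1, CYP703A3 and PTC1 had negative ones of -0.36 to -0.15, and none of these genes passed the test. The green leaf genes RBCS and CAB2R, summed, were at 2450 and 1961 on the high arrays and at 2514 and 2106 on the low arrays. Nearly all of that sum was CAB2R, with a log2 difference of -0.08 ± 0.16. RBCS alone was at 40.1 and 64.7 on the high arrays, against 34.7 and 33.65 on the low arrays (0.42 ± 0.23). Of these 2 genes 0 were called, and the root hair symbols matched 0 genes. RNA quality was read from actin, whose 3' over 5' signal was 33.3 and 36.9 on the high arrays, against 42.2 and 47.8 on the low arrays. The same ratio for GAPDH was 51.9 and 34.4 on the high arrays, against 85.2 and 67.6 on the low arrays. The part of tissue makeup and RNA quality in the EXPA16 and EXPA5 differences was not tested.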

How the data were processed

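Biotinylated cRNA was hybridised to the arrays, per the labels' protocols. What the authors deposited is 1 linear intensity per probe set and array. GCOS 1.2 is named in the submitters' processing notes; the scaling target is not given in the sources used here. Of 57381 probe sets, 187 controls were left out: the AFFX probe sets and the reporter gene probe sets. Because trimmed means of the deposited arrays differed by a ratio of 1.52, intensities were quantile normalised and then logged as log2(intensity + 16), a scale on which differences of dim genes come out too small. The filter kept 34316 probe sets, those not below the 40th percentile of the mean log2 value (about an intensity of 3.28). They were fitted in limma 3.58.1 under R 4.3.3 (lmFit, then trended eBayes, group as the only term), with Benjamini-Hochberg adjustment over all of them. The eBayes step, which shares spread between probe sets, had 9.05 prior degrees of freedom. The steps were tested on simulated data. With 2 arrays a group, their number limits the precision.

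Genes were named by Entrez ID from the platform annotation and an NCBI gene table (ASM3414082v1), used for names and gene order only, with no coordinates. Of the probe sets, 22436 were paired with 1 gene, 95 with several, which were not used, and 34663 with none. The expansin genes, context lists and settings were chosen with earlier results of these data known. The rule for named genes gave values on each array for members at an unadjusted p under 0.05 or a difference of 0.5 or more, and for the 5 brightest alpha and the 5 brightest beta expansins; values of the other tested members and of some dim members were added after they were seen. Alternatives were the deposited scaling, median centring, other offsets and filters, a replicate block, averaging probe sets and leaving out each array.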

Additional observations from a re-analysis of the deposited data

How the results depend on the processing

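Each of the 19 tested expansins was refitted under up to 12 alternatives, giving 227 results. In 199 the sign was kept with no call, in 27 the sign changed and in 1 the gene became a call. Of the genes, 5 kept their sign under all alternatives run and 14 did not. For EXPA16, EXPA5 and EXPB6, whose groups did not overlap, leaving out 1 array could not change the sign. The count of expansins called higher was 0 under all alternatives other than the replicate block, and the count called lower was 0 under all of them. With the replicate number as a block (replicate block), 1 expansin was called higher, EXPA16 (0.92, limma adjusted p = 0.0247, against 0.129 to 1 under the other alternatives), and over all probe sets 189 were called higher and 465 lower, against 53 and 142. The replicate 1 minus replicate 2 difference correlated at 0.111 between the bulks across probe sets. The samples share only a number, as the labels do not say that it marks a shared batch.

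Over all probe sets, 37 were higher and 233 lower with the deposited scaling, 59 were higher and 332 lower after median centring, and 91 were lower with log2(value + 1). With no filter 0 were higher and 0 lower (limma, 3849 at an unadjusted p under 0.05), with 57194 probe sets fitted. Without 1 array, 7 to 45 were higher and 43 to 184 lower; such a fit takes the spread of the lone array to be that of the other kind of bulk. The cause was not tested.

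Signs changed with the deposited scaling for EXPA2 (-0.09), EXPA29 (-0.06) and EXPA7 (-0.13), and after median centring for EXPA2 (-0.08), EXPA29 (-0.06) and EXPA7 (-0.13). Leaving out 1 array in turn gave ranges that crossed 0 for 14 genes: EXPA1 -0.25 to 0.05, EXPA10 -0.33 to 0.17, EXPA2 -0.25 to 0.31, EXPA29 -0.16 to 0.35, EXPA7 -0.01 to 0.09, EXPB11 -0.28 to 0.10, EXPB17 -0.80 to 0.05, EXPB3 -0.66 to 0.0041, EXPB4 -0.36 to 0.12, EXPB7 -0.34 to 0.33, EXPB8 -0.33 to 0.07, EXLA2 -0.65 to 0.15, EXLA3 -0.29 to 0.22 and EXLA4 -0.32 to 0.16. Filtering at the 60th percentile left 18 expansins tested.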
